A study of Mus musculus with 4 samples.

Results

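Integrins are cell surface receptors built from 1 alpha and 1 beta subunit, and 9 mouse genes of this family are described here, the laminin-binding subunits Itga3, Itga6 and Itgb4 and the RGD-binding subunits Itga5, Itgav, Itgb3, Itgb5, Itgb6 and Itgb8. They were chosen by name, for the ligand that their receptors bind, and a gene counted as measured where the array's annotation paired at least 1 probe set with its symbol and no other. By this rule 8 of the 9 were measured, with 18 probe sets, among 17097 measured genes in all, and Itgb8 was not analysed here. Each gene was represented by its brightest probe set, judged by the mean over all arrays.

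Expression was measured with microarrays in transplanted mouse mammary gland cells, taken 3 days after the transplantation. In the first group, labelled multipotent, 10000 BC cells were transplanted alone. In the control group, labelled unipotent, 2000 BC cells were transplanted together with 8000 LC cells. Each group had 2 arrays, and each array carried RNA from 50 sorted cells. The labels do not spell out BC and LC, commonly taken as basal and luminal cells. The labels state neither the sort gate nor the strain, age and number of the animals, so the spread between arrays may be technical. The absence of LC cells and the larger number of BC cells cannot be told apart as the source of a difference, and neither can fewer cells of a type and less RNA per cell.

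Receptors that contain Itga6 or Itga3 hold epithelial cells on laminin in the basement membrane, and Itga6 with Itgb4 forms the core of hemidesmosomes, the rivets of basal epithelium. RGD-binding receptors recognise a short arginine-glycine-aspartate motif in fibronectin, vitronectin and related matrix proteins. Itgav pairs with several beta chains, and with Itgb6 or Itgb8 it binds and activates latent TGF-beta. In the mammary gland the Itga6 protein, CD49f, is a surface marker used widely to separate basal from luminal cells. Whether it was used in the sort is not given in the sources used here.

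Control replicate 2 stood apart from the other arrays before any integrin was considered. Its values over all probe sets had an SD of 1.44, against 1.90 to 1.92 on the other arrays, and it correlated with them at a Pearson r of 0.915 to 0.919, while the other 3 correlated with each other at 0.968 to 0.972. These correlations are across probe sets, which are not independent replicates. Of the 8543 genes brighter than the median gene, 61.4% had their lowest value on this array, and of the 8554 dimmer ones 66.6% had their highest value on it. The median of 8 measured basal markers was 9.98 and 9.635 for BC alone, against 9.765 for control replicate 1 and 5.685 for control replicate 2. The values do not show whether the authors normalised all 4 columns together, and columns normalised apart would not be on the same scale. Differences are therefore given against both controls and against control replicate 1 alone, and the part of this array in each result was not tested by other means.

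Most of these integrins were alike on 3 arrays and low on control replicate 2, and Itgb6 was the member whose BC alone values lay below both controls. Against both controls, 6 of the 8 measured members had a higher mean in BC alone, where 46.7% of all genes did. All 8 were brighter than the median gene, and of such genes 72.4% had a higher mean, so the members' share is near that background. The median difference of the members was 0.79 on the log2 scale, against -0.04 over all genes and 0.375 over genes brighter than the median. Against control replicate 1 alone, 5 of the 8 were higher, with a median of 0.05, where 50.3% of all genes and 53.0% of the brighter ones were higher, with a median of 0.005 over all genes. The counts of the ligand, partner and linkage lists below stand against the same shares. In limma, with Benjamini-Hochberg adjustment over 17097 genes, 0 members passed an adjusted p of 0.05, and the background was 0% of all genes. At an unadjusted p under 0.05 there was 1 member lower in BC alone, Itgb6, where 0.895% of all genes were, and 0 members were higher, where 3.08% of all genes were. In exact two-sided permutation tests Itga6, Itgb3, Itgb5 and Itgb6 reached p = 0.333, the smallest that 2 arrays a group allow.

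**Figure D1:**
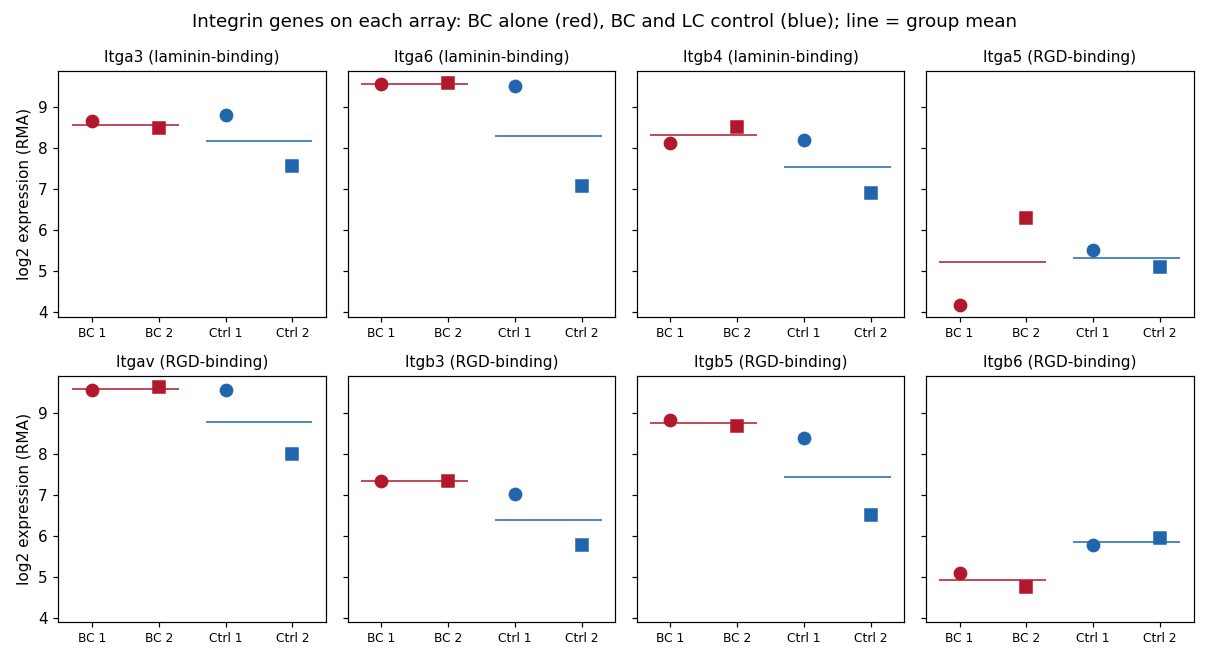
Log2 expression of the brightest probe set of each measured integrin on every array, with BC alone arrays in red, control arrays in blue, and a line at each group mean. Itga6 lay between 9.51 and 9.59 on 3 arrays and at 7.08 on control replicate 2, while both Itgb6 values in BC alone, 5.09 and 4.74, lay below both control values.

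The promoters of Itgb6 and Itgb5 are shown because these members lay farthest apart in the comparison, Itgb6 lowest and Itgb5 highest in BC alone. Each is the 250 bases before the gene's outermost annotated start, 5′ to 3′ on the gene's strand, from RefSeq on build GRCm38.p6. Capitals mark GGGCGG or its reverse complement, the core of the GC box bound by Sp1-type factors.
Itgb6 (minus strand, chr2:60722604-60722853): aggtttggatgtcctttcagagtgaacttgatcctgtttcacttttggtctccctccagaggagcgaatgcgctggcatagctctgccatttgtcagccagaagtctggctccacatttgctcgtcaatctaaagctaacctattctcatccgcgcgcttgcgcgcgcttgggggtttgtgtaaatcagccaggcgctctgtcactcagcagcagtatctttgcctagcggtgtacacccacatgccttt
Itgb5 (plus strand, chr16:33829415-33829664): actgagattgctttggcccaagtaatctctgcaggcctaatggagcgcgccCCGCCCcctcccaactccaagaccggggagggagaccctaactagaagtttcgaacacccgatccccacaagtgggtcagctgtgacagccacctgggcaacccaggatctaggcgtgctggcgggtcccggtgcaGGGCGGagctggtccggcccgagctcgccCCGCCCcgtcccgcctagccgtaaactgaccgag

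On both strands, GGGCGG occurred 3 times in the Itgb5 window and 0 times in the Itgb6 window, and 32.7% of 32851 RefSeq promoter windows of this length held it. The AP-1 motif TGANTCA, which does not overlap GGGCGG, occurred 0 times in both, against 6.75% of all windows. The Itgb5 window was 65.2% G or C and the Itgb6 window 52%, against a median of 52.4% over all windows. Promoters of 5 measured members were available, those of Itga3, Itga5, Itgav, Itgb5 and Itgb6. GGGCGG occurred 0 times for Itgav, which differed by 0.815, and 2 times for Itga5, which differed by -0.085. It occurred 3 and 1 times in the windows of Itga3, for which no direction can be given, and 0 times in a further Itgb6 window. Unlike the windows printed above and that of Itga5, the Itgav, Itga3 and further Itgb6 windows do not precede the gene's outermost annotated start. The arrays measured RNA and not binding, so these matches are a description of the letters.

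Itga6, the laminin-binding alpha chain known as CD49f, was nearly constant on the first 3 arrays. It had log2 values of 9.57 and 9.59 on the BC alone arrays, against 9.51 and 7.08 on the control arrays. The groups did not overlap, but the gap to control replicate 1 was 0.07, and nearly all of the difference lay on control replicate 2. The mean was 9.58 ± 0.014 for BC alone and 8.295 ± 1.72 for the control (SD, n = 2 each), a difference of 1.285 ± 0.79 (SE, limma adjusted p = 0.842). Its dimmer probe set had 9.20 and 9.30 on the BC alone arrays, against 9.11 and 6.98 on the control arrays, which is the same pattern.

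Itgb4, the beta chain that pairs with Itga6 in hemidesmosomes, had 8.12 and 8.51 on the BC alone arrays, against 8.21 and 6.90 on the control arrays. Control replicate 1 lay between the BC alone arrays, so the groups overlapped. The difference was 0.76 ± 0.50 (SE, n = 2 each, limma adjusted p = 0.842), and 0.105 against control replicate 1 alone. Itgb4 had 1 probe set. The difference of Itga6 minus that of its partner Itgb4 was 0.525 over all arrays (exact permutation p = 0.667) and -0.035 against control replicate 1 alone.

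Itga3, the alpha chain of a laminin receptor with Itgb1, had 8.66 and 8.50 on the BC alone arrays, against 8.82 and 7.56 on the control arrays. Control replicate 1 was the highest of the 4 arrays and control replicate 2 the lowest. The difference was 0.39 ± 0.48 (SE, limma adjusted p = 0.843) over both controls and -0.24 against control replicate 1 alone. Its other probe sets pointed in different directions. The second brightest had 7.67 and 6.93 on the BC alone arrays, against 8.0 and 7.15 on the control arrays, a difference of -0.275, and the dimmest had 7.43 and 6.47 against 6.63 and 5.59, a difference of 0.84. No direction can be given for Itga3, since its sign turned with the probe set, without control replicate 2, at -0.27 under quantile normalization and at -0.28 under cyclic loess.

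Among the RGD-binding chains, Itgav was as constant as Itga6 on the first 3 arrays. It had 9.54 and 9.62 on the BC alone arrays, against 9.55 and 7.98 on the control arrays. The first control array lay within the range of BC alone, and the difference of 0.815 ± 0.56 (SE, limma adjusted p = 0.842) was 0.03 without control replicate 2. Of its 5 probe sets, the 3 brighter ones differed by 0.815, 0.765 and 0.435, and the 2 dimmest by -0.38 and -0.15. Against control replicate 1 alone those 5 differed by -0.10 to 0.10.

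Itgb5, which with Itgav forms a vitronectin receptor, had 8.81 and 8.68 on the BC alone arrays, against 8.37 and 6.51 on the control arrays. Both BC alone arrays lay above both controls. The mean was 8.745 ± 0.092 for BC alone and 7.44 ± 1.32 for the control (SD, n = 2 each), a difference of 1.305 ± 0.63 (SE, limma adjusted p = 0.842). Against control replicate 1 alone the gap was 0.375. On its dimmer probe set, with 7.49 and 7.35 on the BC alone arrays, against 7.37 and 5.67 on the control arrays, control replicate 1 lay between the BC alone arrays, and the gap to it was 0.05.

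Itgb3, the beta chain of a vitronectin receptor of endothelial cells, osteoclasts and platelets, had 7.33 and 7.34 on the BC alone arrays, against 7.01 and 5.76 on the control arrays. The groups did not overlap, and the difference was 0.95 ± 0.48 (SE, limma adjusted p = 0.842). Its dimmer probe set had 6.48 and 6.51 on the BC alone arrays, against 5.26 and 5.03 on the control arrays. There the controls were close to each other and both were below BC alone, by 1.35 on average and by 1.235 for control replicate 1. These control values lay near the median gene, which had a mean of 5.015, and were not tested against background. The 2 probe sets therefore gave the same direction against each control and different sizes against control replicate 1, 0.325 and 1.235.

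Itgb6, a beta chain restricted to epithelia whose receptor activates TGF-beta, was the member with both BC alone arrays below both controls. It had 5.09 and 4.74 on the BC alone arrays, against 5.77 and 5.93 on the control arrays. The controls were close to each other, and both were above both BC alone arrays. The mean was 4.915 ± 0.25 for BC alone and 5.85 ± 0.11 for the control (SD, n = 2 each), a difference of -0.935 ± 0.31 (SE, limma unadjusted p = 0.0274, adjusted p = 0.842), with the control 1.91 times as high on the linear scale. The dimmer probe set had 4.36 and 4.05 on the BC alone arrays, against 5.30 and 6.12 on the control arrays, a difference of -1.505 without overlap.

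The Itgb6 difference did not rest on control replicate 2. Against control replicate 1 alone it was -0.855 on the brighter and -1.095 on the dimmer probe set, and 3.38% of all genes had an equal or lower value than -0.855 in that comparison. It ran from -1.11 to -0.76 whichever array was left out. Both probe sets lay near the median gene, which had a mean of 5.015, and values in that range were not tested against background.

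**Figure D2:**
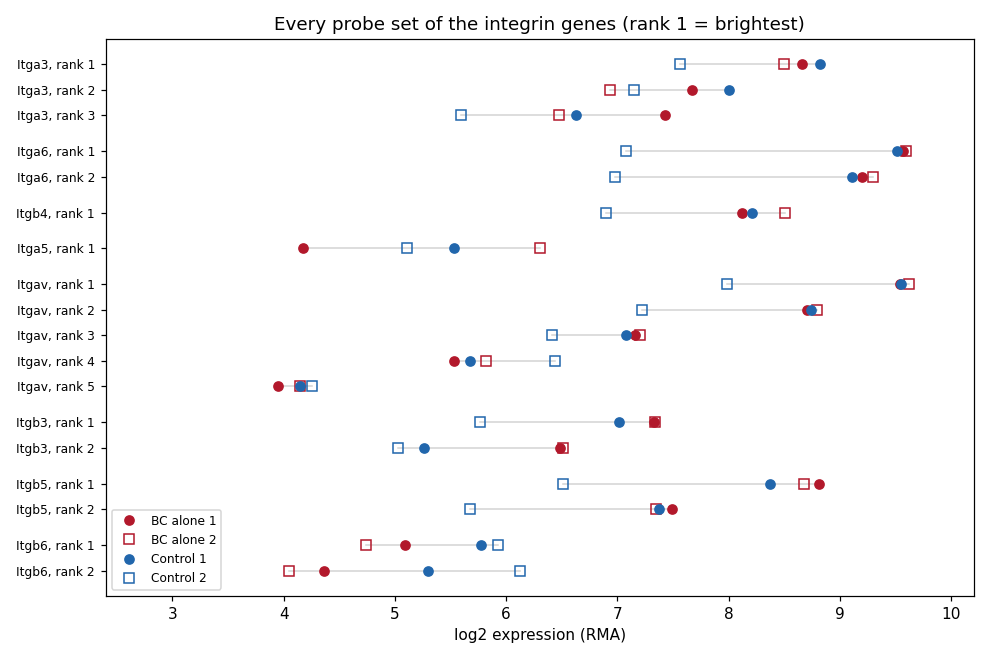
Log2 expression on each array for all 18 probe sets of the measured integrins, ranked by brightness within a gene, with BC alone in red and the control in blue, filled for replicate 1 and open for replicate 2. On 12 of the 18 control replicate 2 was the lowest array, and both Itgb6 probe sets had the 2 BC alone arrays below both controls.

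Itga5, the alpha chain of the classical fibronectin receptor, was the member that differed most between the BC alone arrays. It had 4.17 and 6.30 on the BC alone arrays, against 5.53 and 5.11 on the control arrays. Both controls lay between the BC alone arrays. The difference was -0.085 ± 0.72 (SE, limma adjusted p = 0.968), and it was 0.98 with the first BC alone array left out and -1.15 with the second left out. With 1 probe set near the median gene, these data give no direction for Itga5.

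Groups did not overlap for 3 members that were higher in BC alone, Itga6, Itgb3 and Itgb5, where 16.8% of all genes and 28.1% of the brighter ones did so. The same held for 1 that was lower, Itgb6, where 19.6% of all, 8.46% of the brighter and 30.7% of the dimmer ones did so. Itgb6, with a mean of 5.38 against 5.015 for the median gene, lay near the cut between brighter and dimmer genes. At least 2-fold and without overlap there were 2 members higher, Itga6 and Itgb5, against 4.79% of all genes and 761 of the 8543 brighter ones. There were 0 lower, against 0.895% of all genes and 92 of the brighter ones. Without control replicate 2, both BC alone arrays lay above control replicate 1 for 3 members, where 33.2% of all genes did, and below it for 2, where 33.8% did. The shares against control replicate 1 are near the background.

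**Figure D3:**
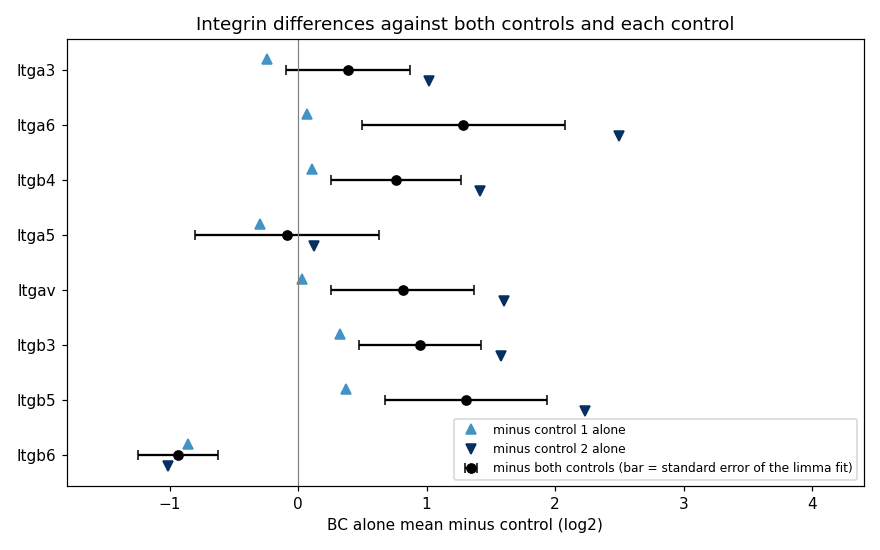
BC alone mean minus control on the log2 scale for each measured integrin, against both controls with the standard error of the limma fit as a bar, and against each control alone as triangles. Against control replicate 1 alone 7 of the 8 lay between -0.295 and 0.375, and Itgb6 lay at -0.855.

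Quantile normalization and cyclic loess changed Itga6, Itgb5, Itgb3, Itgb4 and Itgav more than Itgb6. Under quantile normalization of the 4 columns Itga6 differed by 0.67, Itgb5 by 0.82, Itgb3 by 0.71, Itgb4 by 0.22 and Itgav by 0.09. Under cyclic loess the same genes differed by 0.54, 0.67, 0.54, 0.14 and 0.04. Itgb6 differed by -1.04 and -0.94 under these scalings. After median centring the median difference over all genes was 0.085 in place of -0.04, a shift of 0.125, and Itgb6 was at -0.81.

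**Figure D4:**
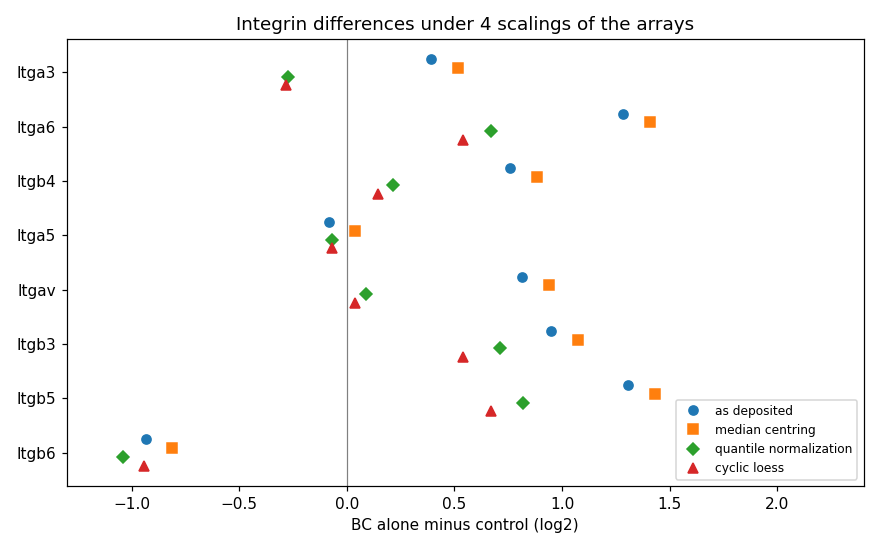
BC alone minus control on the log2 scale for each measured integrin, with the deposited values and under 3 other scalings. Itgb6 stayed between -1.04 and -0.81, Itgav lay at 0.09 and 0.04 under quantile normalization and cyclic loess, and the sign of Itga3 turned under both.

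Itgav and its partner beta chains were set side by side. The difference of Itgav minus that of Itgb6 was 1.75, of Itgb5 -0.49, of Itgb3 -0.135 and of Itgb1 0.47. Against control replicate 1 alone these were 0.885, -0.345, -0.295 and -0.13. Contrasts among beta chains were not planned. The difference of Itgb6 minus that of Itgb5 was -2.24, and minus that of Itgb3 it was -1.885. Against control replicate 1 alone these contrasts gave -1.23 and -1.18. They set the lowest member against the highest RGD-binding ones, so their size follows in part from that choice. The exact permutation test of each of these contrasts gave p = 0.333, the smallest this design allows. Itgb1, the beta chain shared by Itga3, Itga5, Itga6 and Itgav, had 10.25 and 9.77 on the BC alone arrays, against 9.85 and 9.48 on the control arrays, a difference of 0.345 ± 0.34 (SE, limma adjusted p = 0.842). Control replicate 2 was only 0.37 below control replicate 1 for Itgb1, against 2.43 for Itga6 and 1.57 for Itgav. A dimmer Itgb1 probe set, with 8.50 and 8.24 on the BC alone arrays, against 8.33 and 7.19 on the control arrays, showed a wider gap between the controls.

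Laminin chains, the ligands of the laminin receptors, differed in part against control replicate 2 alone. Of 8 measured laminin chains, 7 had a higher mean in BC alone, with a median difference of 0.98, but 4 of 8 were above control replicate 1, with a median of 0.02. In limma 0 passed over all genes, and 1 had an unadjusted p under 0.05. Lama3, an alpha chain of the laminin of hemidesmosomes, had 9.07 and 9.04 on the BC alone arrays, against 9.21 and 4.84 on the control arrays. Lamb1 had 8.55 and 8.24 against 8.20 and 5.48. Lamb2 and Lama2 were above each control, Lama2 by 1.025 and 0.875, and Lamc3 differed by 0.58 from control replicate 1 and by -0.86 from control replicate 2. Lamb2 had low values on both controls, with 8.0 and 7.88 on the BC alone arrays, against 6.87 and 6.49 on the control arrays.

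Partners of Itga6 and Itgb4 in hemidesmosomes and tetraspanin complexes gave 6 of 7 higher, with a median difference of 0.945, and 3 of 7 above control replicate 1, with a median of -0.015. Col17a1, a transmembrane collagen of hemidesmosomes, had 9.57 and 9.11 on the BC alone arrays, against 9.58 and 4.92 on the control arrays. The tetraspanins Cd81 and Cd9 differed by 1.37 and 1.10, and by 0.34 and 0.05 against control replicate 1 alone. Cd151, the tetraspanin that binds laminin-binding integrins, differed by 0.68 and by -0.03. In limma 0 of the 7 passed over all genes, and 0 had an unadjusted p under 0.05.

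Ligands of the RGD-binding receptors were divided. Of 13 measured, 7 had a higher and 6 a lower mean in BC alone, with a median of 0.645, and of -0.07 against control replicate 1 alone. Fn1, fibronectin, the ligand of Itga5 and Itgav receptors, had 9.48 and 9.19 on the BC alone arrays, against 7.06 and 6.60 on the control arrays, a gap also present against each control. Nid1, nidogen, had 8.69 and 9.35 against 7.59 and 6.63, and was also above each control. Postn, periostin, a ligand of Itgav receptors, had 9.86 and 9.84 against 9.63 and 6.20, and so differed mainly from control replicate 2. In limma 0 of the 13 passed over all genes, and 2 had an unadjusted p under 0.05.

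Itgav with Itgb6 activates latent TGF-beta, and a list of TGF-beta ligands, latent TGF-beta binding proteins and related genes was set beside it. The list was not sorted by which of them this receptor acts on. Of 8 measured, 6 had a higher mean in BC alone, with a median of 0.49, and 4 were above control replicate 1, with a median of -0.015. Ltbp4, a latent TGF-beta binding protein of the matrix, had 8.89 and 9.58 on the BC alone arrays, against 7.05 and 6.17 on the control arrays. Ltbp3 and Ltbp1 differed by 0.955 and 0.895, and by -0.20 and 0.825 against control replicate 1 alone, where the sign of Ltbp3 turned. Tgfb1 itself had 7.07 and 6.53 on the BC alone arrays, against 6.63 and 5.57 on the control arrays, with control replicate 1 between the BC alone arrays. In limma 0 of these 8 passed over all genes, and 1 had an unadjusted p under 0.05.

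Genes that activate integrins or link them to actin gave 13 of 14 higher, with a median difference of 0.805, and 12 of 14 above control replicate 1, with a median of 0.15. Parva, which binds the integrin-linked kinase, differed by 1.33 and by 0.105 against control replicate 1 alone. Ilk, that kinase, differed by 1.245 and 0.67, and Vcl, vinculin, by 1.21 and 0.14. In limma 0 of the 14 passed over all genes, and 1 had an unadjusted p under 0.05.

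**Figure D5:**
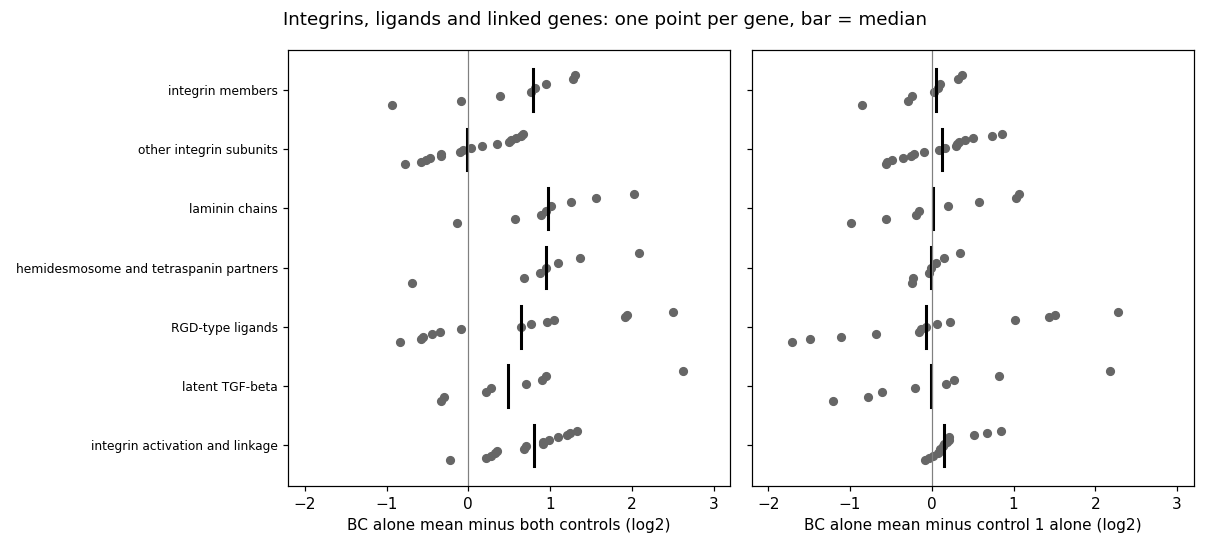
BC alone mean minus control on the log2 scale for each measured gene of the integrin lists, against both controls on the left and against control replicate 1 alone on the right, with a bar at the list median. Medians of 0.79 for the integrin members and 0.98 for laminin chains on the left stand at 0.05 and 0.02 on the right.

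Markers of some other cell types lay higher in BC alone, and in limma 0 of them passed over all genes. At an unadjusted p under 0.05 in limma, 4 of 8 fibroblast, 3 of 6 endothelial and 2 of 3 pericyte markers were higher. So were 2 of 10 luminal markers, where 3.08% of all genes were. The median of 8 fibroblast markers was 7.81 and 7.79 on the BC alone arrays, against 6.25 and 5.17 on the control arrays, and all 8 had a BC alone mean above control replicate 1. Among them Pdgfra, with 4.06 and 3.57 on the BC alone arrays, and Col1a2, with 4.12 and 3.91, lay below the median gene. The median of 3 pericyte markers was 8.41 and 7.78 on the BC alone arrays, against 6.20 and 6.94 on the control arrays, and that of 6 endothelial markers 5.805 and 6.46 against 5.35 and 5.195. Of the endothelial markers, Pecam1, Cldn5 and Kdr differed by 0.07, 0.185 and 0.215, and Emcn, Cdh5 and Tek by 1.315, 1.35 and 1.82. The pericyte marker Pdgfrb differed by -0.105, and Notch3 and Rgs5 by 1.64 and 2.995. Among the fibroblast markers, Col1a2 and Pdgfra differed by -0.06 and 0.185, and Col3a1 and Col1a1 by 0.845 and 1.415. Dcn, Lum, Fap and Thy1 differed by 2.035, 2.07, 2.255 and 2.275. Fibroblasts, pericytes and endothelium also express Itgav, Itgb3 and Itgb5, and the part of these cells in the values of those genes was not tested. The 5 platelet markers had medians of 4.49 and 4.46 on the BC alone arrays, against 4.45 and 4.98 on the control arrays. The median of 10 luminal markers was 7.35 and 7.47 on the BC alone arrays, against 6.92 and 7.04 on the control arrays, but 5 of the 10 were above control replicate 1, with a median per-gene difference of -0.07, and 6 of the 10 were lowest on control replicate 2. Their part in the Itgb6 value was not tested.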

How the data were processed

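The authors deposited 1 log2 expression value per probe set and array. RMA and affy are the tools named, without versions, per the submitters' processing notes. RMA as a method adjusts for background, scales arrays by quantiles and combines the probes of a set. The 4 columns do not share 1 distribution, so whether they were scaled together is not known. No detection calls came with the values, and depth has no meaning for arrays, whose number limits the precision. Of 45141 probe sets, the platform annotation gave 28898 a single symbol, 551 several and 15692 none, and 28689 matched the RefSeq table by Entrez identifier.

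All 17097 genes, with the brightest probe set each, were fitted in limma 3.58.1 under R 4.3.3 (lmFit and eBayes, no trend, two-sided, Benjamini-Hochberg over all genes, threshold 0.05), as BC alone minus control, with 2 residual degrees of freedom. The code of the fit was run on simulated data with equal noise on all 4 arrays. That setting holds no array such as control replicate 2, so it does not show how the fit behaves on these data. Members and lists were chosen with earlier results of these data known. Genes named beside the members are the 3 of each list with the largest absolute difference, plus Itgb1, Fn1, Cd151 and Tgfb1. Lama2, Lamc3, the single cell type markers and further integrin subunits were named after their values were seen. Alternatives changed the scaling, probe set, dim filter, variance model, block and arrays.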

Additional observations from a re-analysis of the deposited data

How the results depend on the processing

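Across 102 alternative values of the 8 integrins, 7 changed sign, all of Itga3 or Itga5, and 0 passed an adjusted p of 0.05. Itga3 turned to -0.27 under quantile normalization, -0.28 under cyclic loess and -0.275 with its second brightest probe set, and Itga5 to 0.04 under median centring. With 1 array left out, Itga3 ran from -0.24 to 1.02, Itga5 from -1.15 to 0.98, Itga6 from 0.07 to 2.50, Itgb4 from 0.105 to 1.415, Itgav from 0.03 to 1.6, Itgb3 from 0.325 to 1.575, Itgb5 from 0.375 to 2.235 and Itgb6 from -1.11 to -0.76. Adjusted p for Itgb6 ran from 0.125 to 0.999. The lone array of a reduced group was assumed to vary like the others.

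At an adjusted p under 0.05, limma called 0 genes, where 97 passed with an intensity trend and 108 with the replicate block. At an unadjusted p under 0.05 the counts were 680, 1024 and 1238. The deviations of replicate 1 from its group mean correlated between the groups at r = -0.0026 over probe sets. The control deviations depend on control replicate 2, which stood apart, so this value cannot show whether the arrays were paired. The labels give no pairing, and the block was a check only. Genes at least 2-fold different without overlap numbered 972, 84.3% of them higher in BC alone, against 614 (54.4%) under quantile normalization, 533 (56.5%) under cyclic loess and 620 with probe sets averaged. With 1 array left out they numbered 732, 51.2% of them higher, without control replicate 2, to 3824, without control replicate 1. The causes were not tested.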

Other observations

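Of 16 measured integrin subunits other than the 9 chosen genes, 8 had a higher and 8 a lower mean in BC alone, with a median of -0.02. They were not sorted by ligand, and Itgb1, the partner of Itga3, Itga5, Itga6 and Itgav, is among them. Of the 16, 3 had their lowest value on control replicate 2, where 34.1% of all genes, 61.4% of the brighter and 6.82% of the dimmer ones did. The groups did not overlap for 5 that were lower in BC alone, where 19.6% of all genes and 30.7% of those dimmer than the median gene did so, and 8 of the 16 were dimmer. The 5 were Itga4, Itgae, Itgal, Itgam and Itgb2, subunits of leukocyte integrins, named after their values were seen. Nor did the groups overlap for 2 that were higher, Itga2b and Itgb7. Other subunits of leukocyte integrins did not share this direction. Itgb7, the partner of Itga4 and Itgae, had 5.92 and 6.19 on the BC alone arrays, against 5.20 and 5.91 on the control arrays, and Itgax differed by 0.035. Itgb2, the common beta chain of leukocyte integrins, had 5.69 and 6.03 on the BC alone arrays, against 6.35 and 6.53 on the control arrays. Itgal, its partner on lymphocytes, had 4.02 and 3.99 on the BC alone arrays, against 4.56 and 5.01 on the control arrays. Itgal, Itga4, Itgae and Itgam all lay below the median gene on all arrays, and their values were not tested against background. Itga8 had 5.77 and 6.50 on the BC alone arrays, against 6.39 and 4.55 on the control arrays, and its difference of 0.665 was -0.255 against control replicate 1 alone. Itga9 had 7.47 and 5.49 on the BC alone arrays, against 6.07 and 5.60 on the control arrays. In limma 0 of the 16 passed over all genes, and 0 had an unadjusted p under 0.05. Of 6 leukocyte markers, 5 had a lower mean in BC alone. Of all 17097 genes 9037 did, with 2336 of the 8543 brighter and 6701 of the 8554 dimmer ones. Of the 6 markers, 3 were dimmer than the median gene, and Itgam was already counted among the integrin subunits above. The medians of the 6 were 4.425 and 4.735 on the BC alone arrays, against 4.78 and 5.07 on the control arrays.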
